A study of Mus musculus with 9 samples.

Results

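The genes described here encode the subunits of the oxidative phosphorylation machinery, the chain of protein complexes in the inner mitochondrial membrane. They were chosen by a rule on names alone: every gene whose symbol starts with Nduf, Uqcr, Atp5 or Cox followed by a digit from 4 to 8, together with Sdha, Sdhb, Sdhc and Sdhd. This gave 90 genes of the 18194 genes measured, represented on the arrays by 179 probe sets, and for each gene the probe set that was brightest on average across the 9 arrays was read. The rule itself uses no difference between groups, though it was set with earlier results of these data known.

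Electrons from NADH enter the chain at complex I and those from succinate at complex II. Complex III passes them on by way of cytochrome c to complex IV, which reduces oxygen, and the proton gradient built on the way drives ATP synthesis by complex V. Most subunits are encoded in the nucleus, and a few core subunits are encoded in mitochondrial DNA and do not belong to these genes. Leukemia stem cells of the myeloid lineage are known for leaning on oxidative phosphorylation for their energy. By complex, the 90 genes comprised 34 of complex I, 4 of complex II, 8 of complex III, 18 of complex IV and 17 of complex V. The name rule also took in 8 assembly factors of complex I (Ndufaf genes), which build the complex but are not part of it, and Cox7a2l, which joins complexes into supercomplexes.

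The arrays measured total RNA of mouse leukemia cells from bone marrow in 3 groups of 3 arrays, all on a mixed C57/BL6 X 129 background. Cells of primary MLL-AF9 leukemias that were homozygous for a floxed Af10 allele received a retroviral vector with the red marker tdTomato (MIT) alone or with Cre recombinase, were sorted, and gave rise to leukemias in secondary recipient mice. Bone marrow sorted for tdTomato from these mice made up the Af10 floxed group (vector only) and the Af10 deleted group (Cre). The third group consisted of primary leukemias started with Hoxa9 and Meis1, whose bone marrow was neither sorted nor treated. MLL-AF9 is a fusion oncogene of human leukemia, and Af10 (gene symbol Mllt10) is a partner of the histone methyltransferase DOT1L. Loss of Af10 and the presence of Cre cannot be told apart between the MLL-AF9 groups, and between either of these and the Hoxa9-Meis1 group the oncogene cannot be told apart from the transplant generation, the vector or the sort. The labels do not say that arrays stand for separate mice, so a p-value measures only how far these samples spread, and that spread may be technical. In such bulk samples, fewer cells of a type and less RNA per cell cannot be told apart.

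The deleted gene itself checked the labels. Mllt10 was 9.93, 9.89 and 10.19 in the deleted, 11.20, 10.49 and 11.18 in the floxed and 10.93, 10.67 and 10.46 in the Hoxa9-Meis1 arrays, on the log2(intensity + 1) scale used for all levels here. The deleted arrays lay below both other groups. Its difference between deleted and floxed arrays was -0.95 ± 0.21 (SE; limma adjusted p = 0.0293), and its 4 probe sets differed by -1.05 to -0.76. Array medians of the deposited intensity lay between 146 and 156. Correlations across genes were 0.980 to 0.990 between arrays of a group and 0.941 to 0.972 between arrays of different groups. Of the 90 genes, 74 had a mean level of at least 10, and Cox7b2, a testis isoform, was no brighter on any of the 9 arrays than Y-linked probe sets (2.97 to 4.71), which gauge background here. Summed levels of 9 erythroid marker genes, whose cells shed mitochondria as they mature, were 12.98 to 13.06 in the deleted, 13.05 to 13.20 in the floxed and 12.95 to 13.08 in the Hoxa9-Meis1 arrays. The summed levels of 10 myeloid marker genes, which define the leukemia cell type, were high in every group. They were 16.12 to 16.27 in the deleted, 15.76 to 16.18 in the floxed and 16.25 to 16.33 in the Hoxa9-Meis1 arrays. The floxed arrays thus lay below the Hoxa9-Meis1 arrays.

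**Figure D1:**
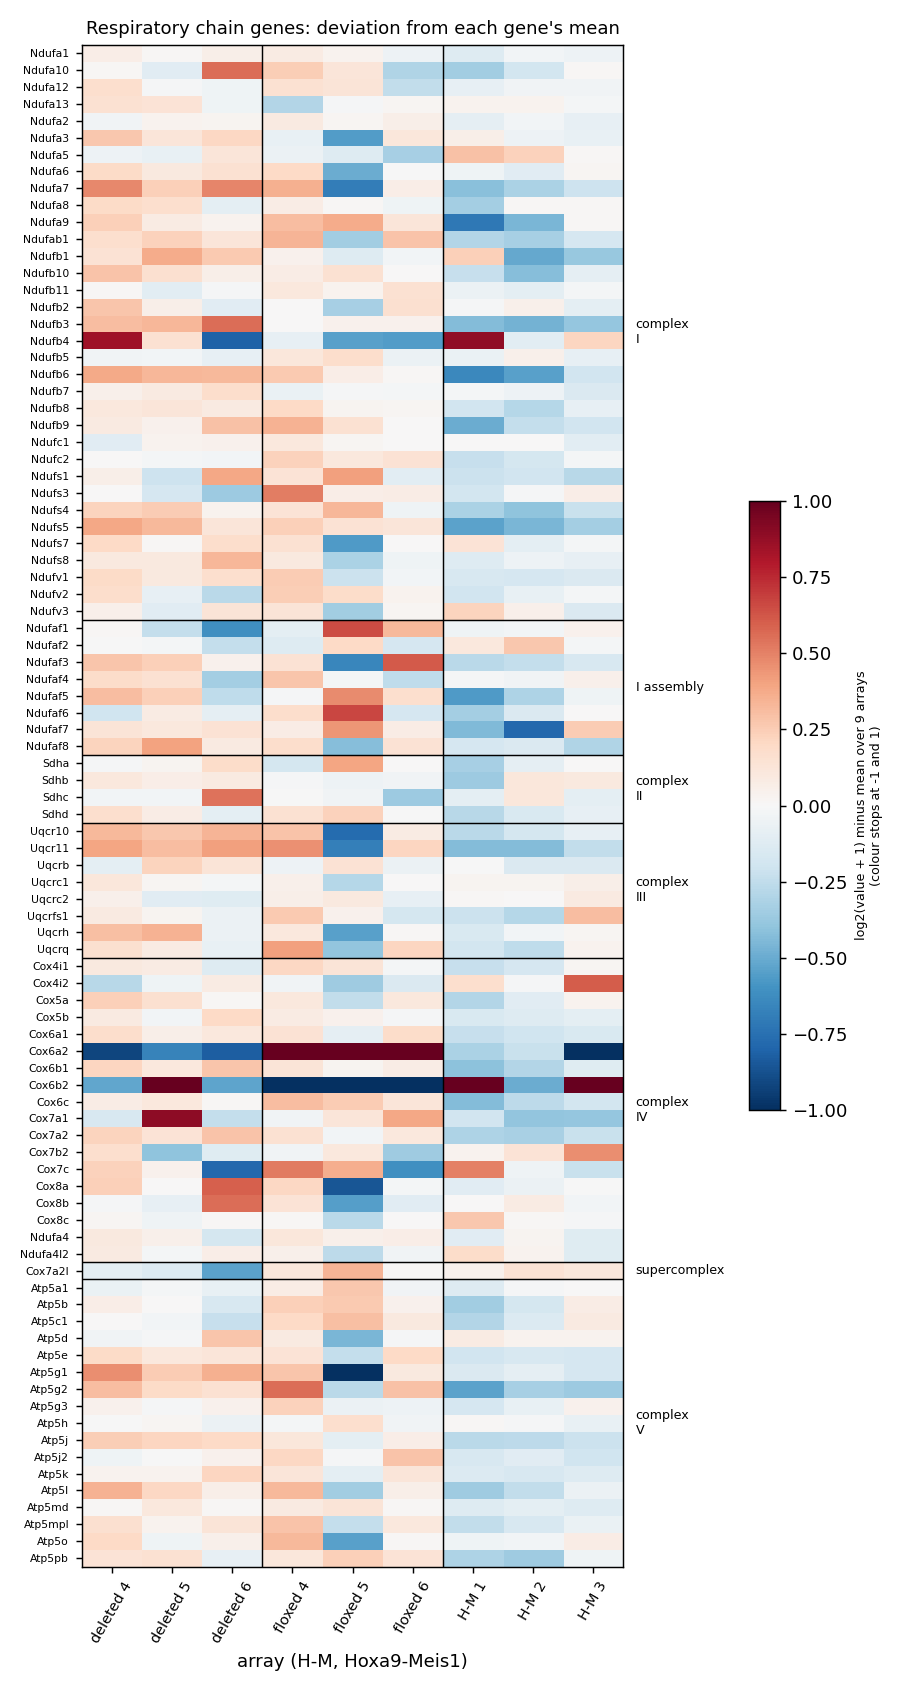
Heat map of all 90 genes (rows, grouped by complex) on the 9 arrays (columns); colour gives the log2(intensity + 1) level minus that gene's mean over the 9 arrays, stopping at -1 and 1. The Hoxa9-Meis1 columns are mostly pale blue, with a median deviation of -0.16 to -0.07 per array, the deleted and floxed columns lie between 0.01 and 0.13, and Cox6a2 and Cox6b2 stand out among the complex IV rows.

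Loss of Af10 was compared first, between the deleted and floxed MLL-AF9 leukemias. The oxidative phosphorylation genes as a group differed little between them: the median difference was 0.05 (log2, deleted minus floxed), beside 0.06 for all genes, and 85 of the 90 differed by less than 0.5. No gene was higher and 1 gene, Cox6a2, was lower in the deleted arrays at a limma adjusted p under 0.05, where 6.85% of all genes were called, 3.22% higher and 3.63% lower. Of the 4082 genes with a mean level of at least 10, 3.48% were called higher and 4.65% lower. At an unadjusted p under 0.05, 3 genes (3.33%) were higher and 4 (4.44%) lower, beside 12.3% and 9.81% of all genes and 14.1% and 12.7% of these bright genes. The 3 arrays of the groups did not overlap for 15 genes, 8 of them above and 7 below in the deleted leukemias, against 15.1% and 10.7% of all genes and 17.7% and 15.5% of the bright genes.

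Cox6a2 encodes the heart and skeletal muscle form of a complex IV subunit, and it is also known as a gene of plasmacytoid dendritic cells. Its levels were 8.51, 8.77 and 8.61 in the deleted arrays, 10.44, 11.01 and 10.84 in the floxed arrays and 9.12, 9.21 and 8.40 in the Hoxa9-Meis1 arrays. The floxed arrays were all high and overlapped with neither other group, while the deleted and Hoxa9-Meis1 arrays lay close together. The level was 4.39-fold lower in deleted than in floxed arrays (log2 difference -2.13 ± 0.23 SE, limma adjusted p = 0.00102). It was 3.62-fold higher in floxed than in Hoxa9-Meis1 arrays (1.86 ± 0.23, adjusted p = 0.00192). Deleted and Hoxa9-Meis1 arrays differed by -0.28 ± 0.23 (adjusted p = 0.486). A second, dimmer probe set of the gene went the same way, by -0.83 between deleted and floxed and by 1.10 between floxed and Hoxa9-Meis1 arrays (adjusted p = 0.00984 and 0.00216 in a fit of all probe sets).

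The other form of this subunit, Cox6a1, which most tissues use, did not follow. Its levels were 13.51, 13.39 and 13.44 in the deleted and 13.48, 13.24 and 13.52 in the floxed arrays, which overlapped, and the difference was 0.04 ± 0.11 (adjusted p = 0.877). The other muscle isoforms of complex IV did not follow Cox6a2 either. Cox7a1 differed by 0.01 ± 0.27 between deleted and floxed arrays, and Cox8b by 0.33 ± 0.21, and both overlapped. Cox7a1 was high on 1 array, at 8.22 on deleted replicate 5, beside 6.94 to 7.72 on the other 8.

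Markers of other cell types went in both directions between deleted and floxed arrays. The 8 B cell markers had a median difference of 0.29. Cd79b was lower in deleted arrays (-0.75 ± 0.11, adjusted p = 0.00481), whereas Cd79a had all deleted above all floxed arrays (0.86, adjusted p = 0.123), and no B cell marker was called higher. Their summed level was 10.73 to 10.88 in the deleted, 11.28 to 11.85 in the floxed and 10.40 to 11.39 in the Hoxa9-Meis1 arrays. Of 9 T and NK cell markers, 4 were called higher in the deleted arrays (median of the list 0.55), with summed levels that overlapped (10.67 to 11.88 and 11.16 to 12.27). Of 9 late neutrophil markers, Cxcr2 was called higher in the deleted arrays (1.90, adjusted p = 0.00398). The summed level of 9 plasmacytoid dendritic cell genes, a list added after the values were seen, was 11.81 to 12.49 in the deleted, 13.45 to 13.65 in the floxed and 12.80 to 13.13 in the Hoxa9-Meis1 arrays. Of these, the transcription factor genes Tcf4 (10.37 to 11.59, 12.95 to 13.09 and 11.68 to 12.04, in the same order) and Irf8 (means 9.35, 11.22 and 11.22) had all floxed arrays above all deleted arrays, and together they made up 54.3% to 72.5% of the summed intensity in the deleted and 86.4% to 87.3% in the floxed arrays. Ly6d went the other way without overlap (8.01 to 8.71 in the deleted and 7.37 to 7.98 in the floxed arrays), and the surface marker that defines the cells, Siglech, overlapped in all groups, with means of 7.68, 7.83 and 8.09. For 12 striated muscle genes, also added afterwards, the summed level was 10.51 to 10.64, 10.73 to 11.43 and 10.37 to 10.43. The creatine kinase gene Ckm (means 7.15, 9.18 and 7.52) and the troponin gene Tnni2 (7.96, 8.67 and 7.85) were high in the floxed arrays without overlap. The myosin light chain gene Mylpf (8.14, 7.78 and 7.28) and the desmin gene Des (7.34, 6.70 and 6.61) had all deleted above all floxed arrays, and the myoglobin gene Mb had means of 7.44, 7.34 and 7.50. The part of such cells in the Cox6a2 result was not tested.

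**Figure D2:**
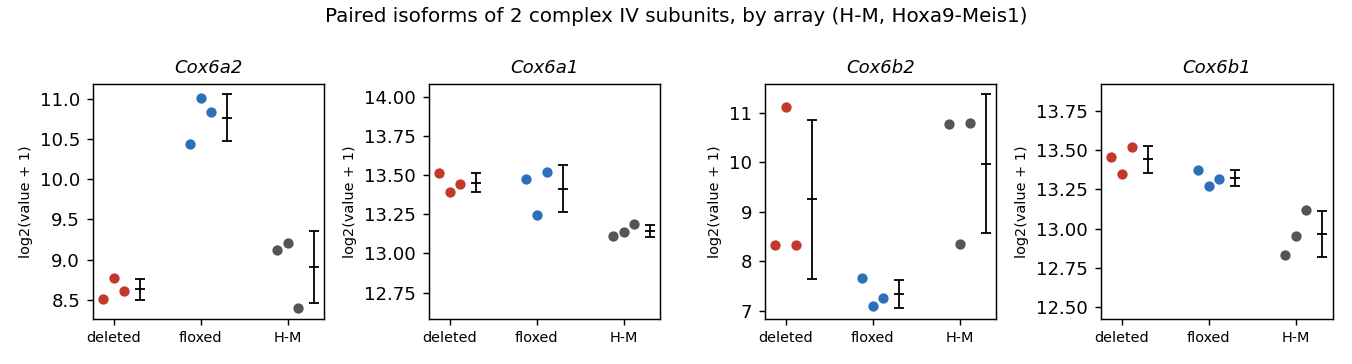
Levels of the paired isoforms Cox6a2 and Cox6a1, and Cox6b2 and Cox6b1, as log2(intensity + 1) on the y axis of each panel; each point is 1 array of the group on the x axis, and the black mark with bars is the group mean with its SD (n = 3). The 3 floxed arrays of Cox6a2 lie at 10.44 to 11.01, above all others, and Cox6b2 is spread over single arrays from 7.10 to 11.10.

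Cox6b2, the testis form of another complex IV subunit, varied more between arrays of a group than any other of the 90 genes in the deleted and Hoxa9-Meis1 groups. Its levels were 8.33, 11.10 and 8.33 in the deleted, 7.66, 7.10 and 7.27 in the floxed and 10.77, 8.36 and 10.79 in the Hoxa9-Meis1 arrays. All floxed arrays were low, while 1 deleted and 2 Hoxa9-Meis1 arrays were high beside the rest of their group. The differences were 1.91 ± 0.83 between deleted and floxed and -2.63 ± 0.83 between floxed and Hoxa9-Meis1 arrays, and neither passed the test (adjusted p = 0.215 and 0.0844). The common form, Cox6b1, differed by 0.12 ± 0.11 between deleted and floxed arrays (adjusted p = 0.571).

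No gene of complexes I, II, III or V passed the test between deleted and floxed arrays. The median difference was 0.09 in complex I, 0.06 in complex II, 0.09 in complex III and 0.02 in complex V. Ndufa7, an accessory subunit, differed most in complex I (0.49 ± 0.23, adjusted p = 0.261), Sdhc, a membrane anchor, in complex II (0.29 ± 0.18, adjusted p = 0.377), Uqcr10, a small subunit, in complex III (0.45 ± 0.24, adjusted p = 0.305) and Atp5g1, a proton-carrying subunit of the c-ring, in complex V (0.58 ± 0.29, adjusted p = 0.289). For Ndufa7, Uqcr10 and Atp5g1 the floxed group held 1 low array, replicate 5, described further on. A second, dimmer probe set of Sdhc differed by 0.01 between deleted and floxed arrays. A pair of dimmer probe sets of Uqcr10 were called higher in the deleted arrays, by 1.22 and 1.06 (adjusted p = 0.0200 and 0.0448 in the fit of all probe sets). A dimmer probe set of Atp5c1, the central shaft of the ATP synthase, was called lower, by -0.77 (adjusted p = 0.0408), where the brighter one differed by -0.28.

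Ndufb3, an accessory subunit of the membrane arm of complex I, lay closest to the threshold. Its levels were 12.55, 12.58 and 12.81 in the deleted and 12.25, 12.29 and 12.29 in the floxed arrays, without overlap, with a difference of 0.37 ± 0.10 (adjusted p = 0.0728). It passed with a pseudocount of 32 (adjusted p = 0.0360), with arrays centred on their medians (0.0425) and with chromosome medians subtracted (0.0395).

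Cox7a2l, the supercomplex factor, was below the floxed arrays on all 3 deleted arrays. Its levels were 12.87, 12.83 and 12.44 in the deleted, 13.08, 13.31 and 12.98 in the floxed and 13.02, 13.11 and 13.09 in the Hoxa9-Meis1 arrays. The deleted arrays were thus below both other groups, by -0.41 ± 0.14 (adjusted p = 0.130) and -0.36 ± 0.14 (adjusted p = 0.136), which did not pass the test. All 3 of its probe sets gave differences of -0.42 to -0.41 between deleted and floxed arrays. Among the assembly factors of complex I, Ndufaf1 differed most, by -0.57 ± 0.21 (adjusted p = 0.144), with overlapping arrays.

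**Figure D3:**
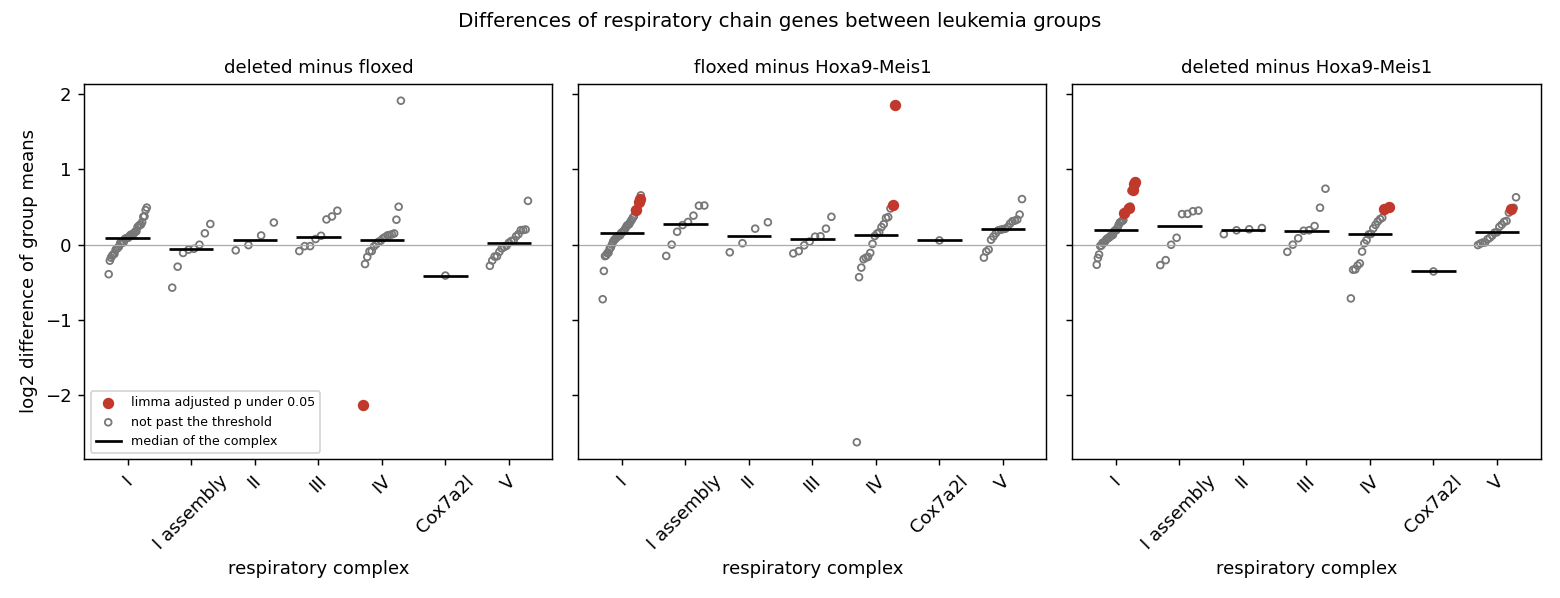
Log2 differences of group means on the y axis for all 90 genes, by complex on the x axis, in the 3 comparisons; filled red points passed limma's test at an adjusted p under 0.05, open points did not, and the black line is the median of the complex. Against the Hoxa9-Meis1 group most points lie above 0, with medians over all 90 genes of 0.16 and 0.19, and between deleted and floxed arrays they centre on 0.05.

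Both MLL-AF9 groups were then compared with the Hoxa9-Meis1 leukemias; the comparisons share those 3 arrays. Most oxidative phosphorylation genes were slightly higher in the MLL-AF9 arrays: 65 of 90 differences (72.2%) were positive for floxed and 72 of 90 (80%) for deleted arrays, with medians of 0.16 and 0.19. Differences were positive for 47.9% and 57.8% of all genes and for 62.6% and 63.6% of the bright genes. The medians of all genes were -0.01 and 0.05, and those of the bright genes were 0.11 and 0.13. In the floxed arrays, 5 genes were called higher (Cox6a2, Ndufs5, Ndufb6, Cox6c and Ndufb3) and none lower. That is 5.56% of the 90, beside 5.58% of all genes called higher and 3.31% called lower (8.89% in all), and 9.46% and 4.07% of the bright genes. In the deleted arrays, 8 genes were called higher (Ndufb3, Ndufb6, Ndufs5, Cox7a2, Ndufs4, Cox6b1, Atp5j and Ndufb10) and none lower, 8.89% of the 90 beside 9.27% of all genes higher and 6.23% lower (15.5% in all), and 15.2% and 7.84% of the bright genes. The shares of calls were near those of all genes and below those of the bright genes, so the number of calls is no result about these genes. Under array weights the shares were 18.9% and 22.2%, beside 8.77% and 13.9% of all genes and 15.5% and 24.4% of the bright genes. At an unadjusted p under 0.05, 22 (24.4%) were higher and 3 (3.33%) lower in the floxed arrays, beside 14.3% and 9.54% of all genes and 24.9% and 10.5% of the bright genes. In the deleted arrays 23 (25.6%) were higher and 1 (1.11%) lower, beside 17.6% and 11% of all genes and 28.7% and 14.1% of the bright genes.

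Markers of other cells differed in these comparisons too. In deleted arrays 5 of 9 T and NK cell markers were called higher than in Hoxa9-Meis1 arrays (median 0.73), among them Gzma, Il2rb, Klrd1 and Cd3e, while the summed levels overlapped (10.67 to 11.88 and 11.15 to 12.22). Of 9 late neutrophil markers, Lcn2 (2.15) and Cxcr2 (2.08) were called higher (median 0.31), with summed levels of 16.44 to 16.82 in deleted, 15.92 to 16.67 in floxed and 16.08 to 16.50 in Hoxa9-Meis1 arrays. Of the B cell markers, Cd79a (1.30) and Igll1 (0.83) were called higher in deleted arrays, and Cd79b (0.45) in floxed arrays. The myeloid factor gene Cebpa was called lower in floxed arrays (-1.13). The part of such cells in the subunit differences was not tested.

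Arrays that did not overlap were more frequent than calls. All floxed arrays lay above all Hoxa9-Meis1 arrays for 30 of the 90 genes and below for 3, beside 15.4% and 12.1% of all genes and 27.1% and 12.2% of the bright genes. The deleted arrays lay above for 35 and below for 1, beside 21.7% and 13.2% of all genes and 35.4% and 17.2% of the bright genes. For 18 genes, or 20% of the 90, all 6 MLL-AF9 arrays were above all 3 Hoxa9-Meis1 arrays, beside 9.44% of all genes and 18.0% of the bright genes. No gene of the 90 had all 6 below. The 18 were 8 of complex I (Ndufa9, Ndufb3, Ndufb6, Ndufb8, Ndufb9, Ndufb10, Ndufs4 and Ndufs5), 5 of complex IV (Cox5b, Cox6a1, Cox6b1, Cox6c and Cox7a2) and 5 of complex V (Atp5g2, Atp5j, Atp5j2, Atp5k and Atp5md).

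The 6 genes of the catalytic core of complex I measured here carry its NADH site and iron-sulfur clusters. None of them passed the test in any comparison on the probe sets used. Their median differences from the Hoxa9-Meis1 group were 0.21 for floxed and 0.19 for deleted arrays. In the fit of all probe sets, a dimmer one of the core gene Ndufs8 was called higher in deleted than in Hoxa9-Meis1 arrays (0.39, adjusted p = 0.0467). Dimmer probe sets of accessory genes were also called higher there: Ndufa7 (0.84 and 0.82), Ndufa12 (0.45 and 0.56), Ndufb7 (0.58) and Ndufb9 (0.77). In floxed arrays, those of Ndufb9 (0.78), Ndufab1 (0.83), Ndufc2 (0.53) and Ndufs4 (0.68) were called higher. A dim probe set of Ndufa12 was called lower in deleted (-1.78) and in floxed arrays (-1.88). On the probe sets used, all called complex I genes were accessory subunits, which surround the core and hold it together. They were 3 of 28 accessory genes in the floxed and 5 of 28 in the deleted arrays, with medians of 0.14 and 0.19 over the 28. That is 8.82% and 14.7% of all 34 complex I genes. Of all genes, 5.58% and 9.27% were called higher, and of the bright genes 9.46% and 15.2%. Whether accessory and core subunits differ was not tested.

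Ndufb3 had levels of 11.82, 11.78 and 11.86 in the Hoxa9-Meis1 arrays, below every MLL-AF9 array. It was 1.78-fold higher in the deleted (log2 difference 0.83 ± 0.10 SE, adjusted p = 0.00116) and 1.38-fold higher in the floxed arrays (0.46 ± 0.10, adjusted p = 0.0279). Ndufb6, another membrane arm subunit, was 12.01, 11.96 and 11.95 in the deleted, 11.89, 11.69 and 11.64 in the floxed and 10.98, 11.08 and 11.44 in the Hoxa9-Meis1 arrays. The groups stood in this order without overlap, and the deleted and floxed arrays, 0.23 ± 0.14 apart (adjusted p = 0.361), did not pass the test against each other. Against Hoxa9-Meis1 the differences were 0.80 ± 0.14 (adjusted p = 0.00522) and 0.57 ± 0.14 (adjusted p = 0.0340), and a second probe set gave 0.74 and 0.54.

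Ndufs5, a subunit on the intermembrane side, was 11.04, 10.97 and 10.78 in the deleted, 10.89, 10.79 and 10.78 in the floxed and 10.12, 10.20 and 10.31 in the Hoxa9-Meis1 arrays. Deleted and floxed arrays overlapped, and both lay above the Hoxa9-Meis1 arrays, by 0.72 ± 0.11 (adjusted p = 0.00347) and 0.61 ± 0.11 (adjusted p = 0.0121). Ndufs4, a subunit known from mouse models of Leigh syndrome, was higher in deleted arrays by 0.49 ± 0.13 (adjusted p = 0.0334), and Ndufb10 by 0.42 ± 0.12 (adjusted p = 0.0495). In the floxed arrays these 2 genes had differences of 0.45 and 0.33, which did not pass the test (adjusted p = 0.0599 and 0.139). Ndufb4, an accessory subunit, had the largest difference of complex I between floxed and Hoxa9-Meis1 arrays, -0.73 ± 0.40 (adjusted p = 0.312), with overlapping arrays. Its only probe set was dim, with a mean level of 7.87, beside a median of 7.79 for all genes.

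The promoters of Ndufb3, Ndufb6 and Ndufs5 are shown because these 3 genes kept their calls between deleted and Hoxa9-Meis1 arrays under all 14 alternative settings. That of Cox6a1 is shown because it holds both of the more frequent motifs described after the sequences. Each is the 250 bases before the transcription start in RefSeq (GRCm38.p6), 5′ to 3′ on the gene's strand. They stand at chr1:58586147-58586396 (plus strand, Ndufb3), chr4:40279422-40279671 (minus, Ndufb6), chr4:123718187-123718436 (minus, Ndufs5) and chr5:115348959-115349208 (minus, Cox6a1). Capitals mark a motif match.
Ndufb3: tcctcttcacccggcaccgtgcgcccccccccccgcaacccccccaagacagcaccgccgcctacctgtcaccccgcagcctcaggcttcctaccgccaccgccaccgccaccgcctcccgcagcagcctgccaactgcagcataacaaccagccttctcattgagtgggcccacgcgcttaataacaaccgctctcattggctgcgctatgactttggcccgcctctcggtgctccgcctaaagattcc
Ndufb6: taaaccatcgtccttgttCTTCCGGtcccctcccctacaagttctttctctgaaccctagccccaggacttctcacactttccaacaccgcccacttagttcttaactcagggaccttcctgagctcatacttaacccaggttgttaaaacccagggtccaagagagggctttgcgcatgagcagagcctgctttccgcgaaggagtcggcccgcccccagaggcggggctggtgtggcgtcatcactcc
Ndufs5: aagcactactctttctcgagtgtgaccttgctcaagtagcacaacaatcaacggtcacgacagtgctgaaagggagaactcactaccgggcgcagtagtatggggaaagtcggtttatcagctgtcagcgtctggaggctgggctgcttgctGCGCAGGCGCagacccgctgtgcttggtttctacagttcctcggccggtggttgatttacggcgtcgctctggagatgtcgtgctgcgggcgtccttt
Cox6a1: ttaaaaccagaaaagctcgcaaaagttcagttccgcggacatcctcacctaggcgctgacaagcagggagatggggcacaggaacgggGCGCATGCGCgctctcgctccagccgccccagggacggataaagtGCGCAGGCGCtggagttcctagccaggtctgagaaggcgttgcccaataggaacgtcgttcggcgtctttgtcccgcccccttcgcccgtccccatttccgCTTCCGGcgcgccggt

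Nuclear respiratory factor 1 (NRF1) and the ETS factor GABP are known regulators of respiratory chain genes, and YY1 is another. Of the 90 genes, 74 had a promoter in the RefSeq table. The 16 without one were Atp5a1, Atp5mpl, Cox4i1, Cox4i2, Cox6a2, Cox6c, Cox8c, Ndufa2, Ndufa4l2, Ndufaf6, Ndufb9, Ndufs1, Sdhc, Uqcrb, Uqcrc2 and Uqcrq. The NRF1-type motif (GCGC, any pair of bases, GCGC), searched on both strands, stood in the window of 14 of the 74 genes (18.9%), beside 5.64% of 27025 genes in the table. The ETS-type motif CCGGAAG, also on both strands, was in 14 (18.9%), beside 7.83% of all. The YY1-type motif AAGATGGC was in 1 (1.35%), beside 1.83%. At least 1 of the 3 motifs, which do not contain each other, was in 25 of the 74 (33.8%), beside 13.99% of all genes. The genes described here are mostly bright, and the motifs were not counted in other bright genes. The higher shares are thus not shown to be particular to oxidative phosphorylation genes. Of the promoters shown, that of Ndufb6 holds an ETS-type match, that of Ndufs5 an NRF1-type match, and that of Cox6a1 a pair of NRF1-type matches and an ETS-type match, whereas that of Ndufb3 holds none of these letters. A match describes the sequence and is not a measured binding site.

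Complex II, succinate dehydrogenase, also takes part in the citric acid cycle. Its genes are Sdha and Sdhb, which carry the flavin and the iron-sulfur clusters, and the membrane anchors Sdhc and Sdhd. None of the 4 was called in any comparison. In the deleted arrays all 4 lay above the Hoxa9-Meis1 mean by 0.14 to 0.22, and in the floxed arrays the differences were 0.21 for Sdha, 0.02 for Sdhb, -0.10 for Sdhc and 0.30 for Sdhd. Sdhd was 12.24, 12.14 and 11.97 in the deleted, 12.22, 12.30 and 12.07 in the floxed and 11.79, 11.92 and 11.99 in the Hoxa9-Meis1 arrays. Only the floxed arrays lay fully above the Hoxa9-Meis1 arrays. A second probe set of Sdhd gave larger differences, 1.23 for deleted and 1.11 for floxed arrays, and was called in both (adjusted p = 0.00444 and 0.0116 in the fit of all probe sets). A second probe set of Sdhc differed by 0.66 in deleted and 0.65 in floxed arrays and was not called (adjusted p = 0.0571 and 0.0797 in that fit).

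Complex III genes were not called in any comparison on the probe sets used. In the fit of all probe sets, a second one of Uqcrb (0.70, adjusted p = 0.00377) and a pair of Uqcr10 (1.25 and 1.02, adjusted p = 0.00985 and 0.0303) were called higher in deleted than in Hoxa9-Meis1 arrays. The 3 genes of its core (Uqcrc1, Uqcrc2 and the iron-sulfur protein gene Uqcrfs1) differed by -0.12 to 0.10 from the Hoxa9-Meis1 group in both MLL-AF9 groups. Its 5 small subunits were all positive in deleted arrays, from 0.18 for Uqcrb to 0.74 for Uqcr11. Uqcr11 was 11.95, 11.86 and 11.96 in the deleted, 12.01, 10.87 and 11.77 in the floxed and 11.12, 11.11 and 11.30 in the Hoxa9-Meis1 arrays. The deleted arrays were above the Hoxa9-Meis1 arrays by 0.74 ± 0.25 (adjusted p = 0.0820), and the low floxed array is replicate 5. Without that array the floxed difference was 0.71 and was called (adjusted p = 0.0182), where it was 0.37 with all arrays.

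Complex IV holds single-copy subunits and subunits with paired common and tissue-restricted isoforms. Of the 10 common or single-copy genes, 9 were above the Hoxa9-Meis1 mean in floxed arrays (all but Cox8a) and 9 in deleted arrays (all but Cox7c). Cox7c was read from a dim probe set, with a mean level of 8.48. The medians of the 10 genes were 0.20 for floxed and 0.28 for deleted arrays. Cox6c was 13.59, 13.61 and 13.52 in the deleted, 13.82, 13.77 and 13.63 in the floxed and 13.08, 13.25 and 13.32 in the Hoxa9-Meis1 arrays. Beside Cox6a2 it was the only complex IV gene called in floxed arrays on the probe sets used (0.52 ± 0.11, adjusted p = 0.0198), and in deleted arrays it differed by 0.36 ± 0.11 (adjusted p = 0.0568). Cox7a2, the common form of its subunit, was 13.57, 13.48 and 13.63 in the deleted, 13.51, 13.32 and 13.46 in the floxed and 13.04, 13.02 and 13.13 in the Hoxa9-Meis1 arrays. Both MLL-AF9 groups lay above, and the deleted one was called (0.50 ± 0.10, adjusted p = 0.0119), as was a second probe set (0.75), which was also called in floxed arrays (0.57, adjusted p = 0.0167 in the fit of all probe sets). Cox6b1 was called in deleted arrays too (0.47 ± 0.11, adjusted p = 0.0215).

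Among the other paired isoforms, no call was made. The common forms Cox4i1, Ndufa4 and Cox8a differed from the Hoxa9-Meis1 group by 0.14, 0.06 and 0.34 in deleted and by 0.23, 0.15 and -0.16 in floxed arrays. The restricted forms Cox4i2, Cox7a1, Cox8b, Cox8c and Ndufa4l2 differed by -0.33, 0.48, 0.13, -0.09 and 0.02 in deleted and by -0.43, 0.48, -0.20, -0.18 and -0.11 in floxed arrays. Restricted forms thus went in both directions, and 2 of the 8 were above in floxed arrays and 3 in deleted arrays.

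Complex V genes encode the ATP synthase: the catalytic head, the stalk that holds it, the c-ring rotor and small membrane subunits. Of the 17, 14 were above the Hoxa9-Meis1 mean in floxed and 16 in deleted arrays. On the probe sets used 1 call was made, for Atp5j in the deleted arrays. In the fit of all probe sets, a second one of Atp5pb was called higher in deleted arrays (0.39, adjusted p = 0.0410). Dimmer ones of Atp5c1 (0.71, adjusted p = 0.0449) and Atp5g2 (1.33, adjusted p = 0.0387) were called higher in floxed arrays. Atp5j, the coupling factor of the stalk, was 13.15, 13.12 and 13.11 in the deleted, 13.02, 12.81 and 12.97 in the floxed and 12.63, 12.64 and 12.69 in the Hoxa9-Meis1 arrays. The groups did not overlap, and the differences from Hoxa9-Meis1 were 0.47 ± 0.10 (adjusted p = 0.0135) for deleted and 0.28 ± 0.10 (adjusted p = 0.122) for floxed arrays. All 5 small membrane subunits lay above without overlap in the deleted arrays, by 0.16 (Atp5j2) to 0.42 (Atp5l), with no call. In this comparison 21.7% of all genes and 35.4% of the bright genes lay above without overlap. Whether these subunits differ from other bright genes was not tested. The c-ring is encoded by 3 genes for the same mature protein: Atp5g1, Atp5g2 and Atp5g3 differed by 0.49, 0.63 and 0.09 in deleted and by -0.09, 0.60 and 0.11 in floxed arrays. Atp5g2 had the largest difference of complex V in both groups (adjusted p = 0.0575 and 0.0877). The 5 genes of the head had medians of 0.03 in deleted and 0.20 in floxed arrays, and in deleted arrays they ranged from -0.01 for Atp5a1 to 0.31 for Atp5e, which lay above without overlap and was not called.

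**Figure D4:**
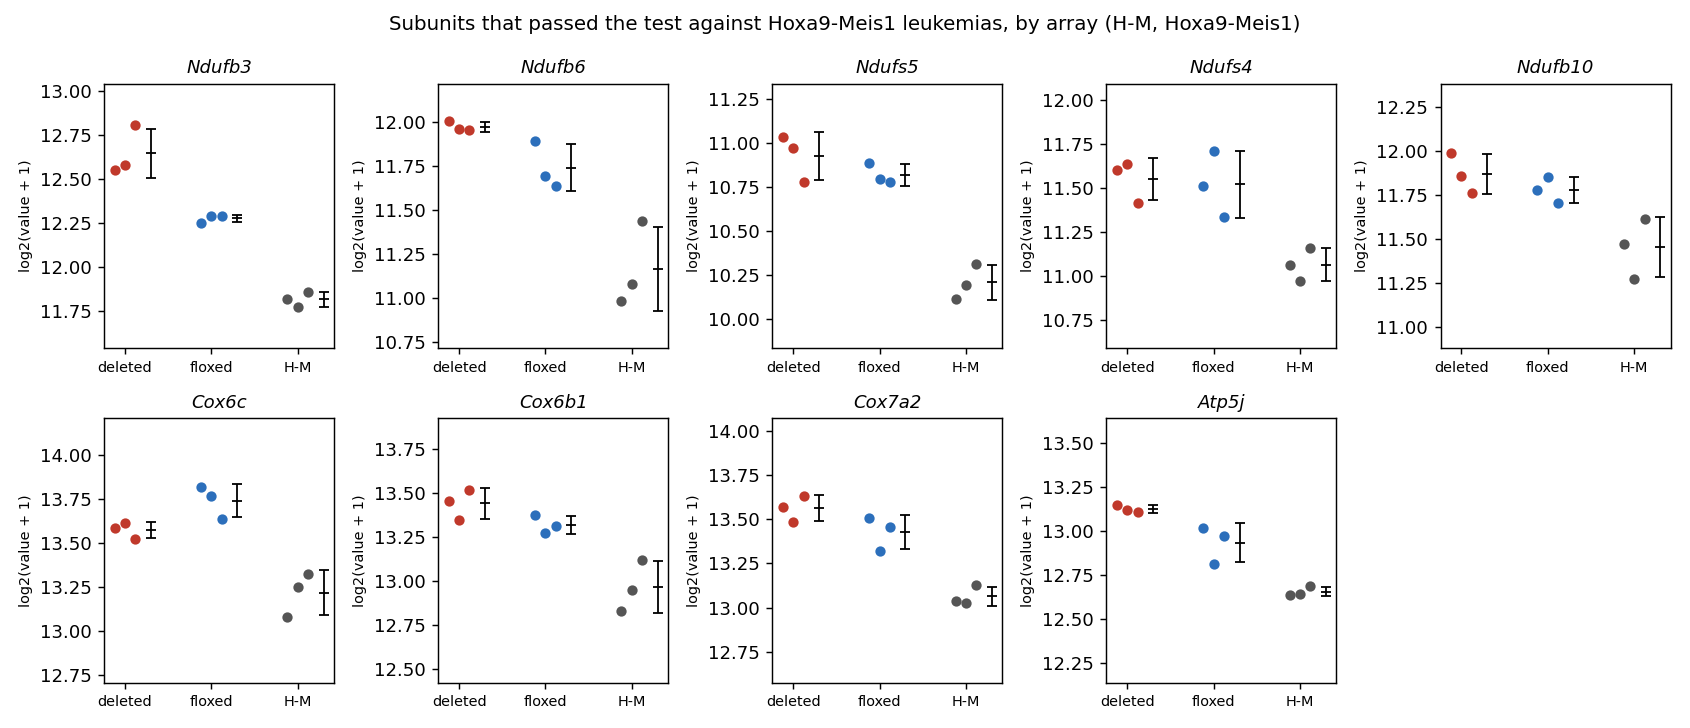
Levels of the 9 subunit genes other than Cox6a2 that were called against the Hoxa9-Meis1 group in floxed or deleted arrays, as log2(intensity + 1) on the y axis of each panel; points are arrays by group on the x axis, and the black mark with bars is the group mean with its SD (n = 3). All 6 MLL-AF9 arrays lie above all 3 Hoxa9-Meis1 arrays in each panel, and for Ndufb3 the means are 12.65, 12.28 and 11.82.

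Most of these calls were near the threshold, and several were lost in fits with 1 array fewer. Without Hoxa9-Meis1 replicate 1, 2 or 3, the floxed calls numbered 1, 2 and 8 in place of 5, and they numbered 2 without floxed replicate 4. The calls over all genes numbered 433, 497, 1141 and 820 in these fits, in place of 1015. The deleted calls numbered 5 without Hoxa9-Meis1 replicate 1, 3 without replicate 2 and 5 without deleted replicate 4, in place of 8, and those over all genes 893, 938 and 1076, in place of 1687. Cox6a2 in floxed arrays and Ndufb3, Ndufb6 and Ndufs5 in deleted arrays were called under all 14 settings tried for each comparison. The calls of Ndufb10, Ndufs4, Cox6b1, Atp5j and Cox7a2 were lost under 8, 5, 4, 2 and 1 of 14 settings, with adjusted p up to 0.174, 0.118, 0.0857, 0.0527 and 0.0502. In floxed arrays, those of Ndufb3, Ndufb6, Cox6c and Ndufs5 were lost under 6, 6, 4 and 1 of 14, with adjusted p up to 0.102, 0.129, 0.0827 and 0.0561. The differences kept their direction: over the settings, for example, that of Ndufb3 in floxed arrays was 0.38 to 0.48 and that of Ndufs4 in deleted arrays 0.39 to 0.56. The probe set chosen for a gene also mattered: of the 51 genes with more than 1 probe set, all probe sets had 1 sign for 33 in floxed and 35 in deleted arrays against Hoxa9-Meis1. One dim probe set of Ndufa12 (mean level 7.20) differed by -1.88 in floxed and -1.78 in deleted arrays, where the brightest differed by 0.06 and 0.09. A further pair, with mean levels of 11.5 and 11.4, differed by 0.28 and 0.43 in floxed and by 0.45 and 0.56 in deleted arrays.

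Individual arrays stood apart within their groups. Floxed replicate 5 was the lowest of the 9 arrays for 26 of the 90 genes (28.9%), beside 26.4% of all genes and 18.7% of the bright genes, and the highest for 19 (21.1%, beside 15.3% and 26.5%). It lay more than 0.5 under the mean of floxed replicates 4 and 6 for 17 genes (18.9%, beside 9.10% of all genes and 11.6% of the bright genes) and above it by as much for 2. The lowest were Atp5g1 (-1.24), Ndufaf3 (-1.04), Uqcr11 (-1.02), Uqcr10 (-0.95), Cox8a (-0.95) and Ndufa7 (-0.90), of 5 different classes. On this array the 3′ probe set of Gapdh exceeded the 5′ one by 1.03, against 0.44 to 0.62 on the other MLL-AF9 and 0.67 to 0.81 on the Hoxa9-Meis1 arrays. The same gap for beta-actin was -0.37 and lay within the range of the other arrays (-0.41 to -0.34). The part of RNA quality in these low values was not tested. Hoxa9-Meis1 replicate 1 was the lowest array for 28 genes (31.1%, beside 12.6% of all genes and 23.3% of the bright genes).

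Deleted replicate 6 was high for the genes of chromosome 1. All 5 oxidative phosphorylation genes there were above the mean of deleted replicates 4 and 5: Ndufa10 by 0.61, Sdhc by 0.58, Ndufs1 by 0.46, Ndufb3 by 0.24 and Cox5b by 0.17. Of the 1057 genes measured on chromosome 1, 72.8% were above on this array, with a median of 0.15, whereas 37 of the 90 genes were above, with a median of -0.03. Sdhc, with 11.23, 11.23 and 11.81 in the deleted arrays, and Ndufa10, with 11.65, 11.52 and 12.20, were both highest on it. Floxed replicate 4 was likewise high for chromosome 15, with 72.9% of 724 genes above the mean of floxed replicates 5 and 6 (median 0.14, beside 0.04 for all genes). All 4 oxidative phosphorylation genes there were above: Atp5g2 by 0.55, Ndufa6 by 0.45, Ndufb9 by 0.27 and Cox6c by 0.12. Floxed replicate 5, part of that mean, was itself low for Atp5g2 and Ndufa6, though not for Ndufb9 and Cox6c. On floxed replicates 4, 5 and 6, Atp5g2 was 12.87, 12.04 and 12.60, and Ndufa6 was 11.24, 10.55 and 11.04. Of all 90 genes, 70 were above on floxed replicate 4, with a median of 0.12. Without deleted replicate 6 and floxed replicate 5 together, Cox6a2 remained the only gene called between deleted and floxed arrays (adjusted p = 0.0213).

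**Figure D5:**
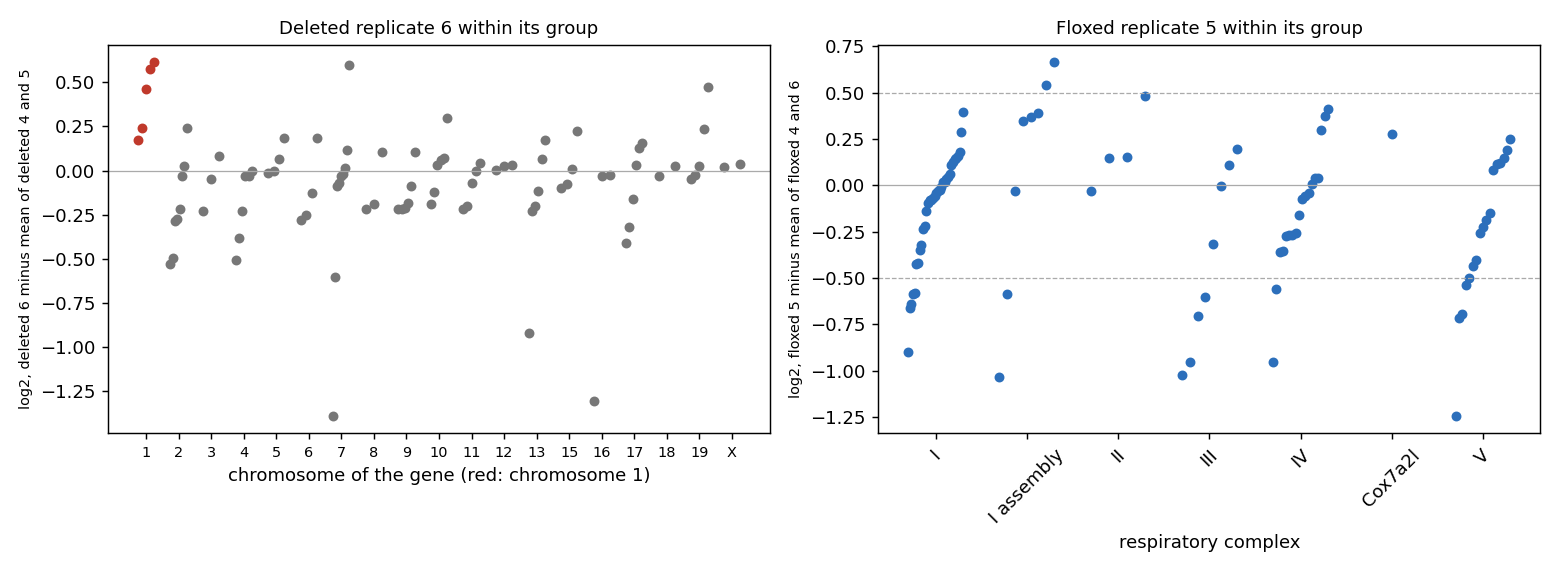
Left, log2 level on deleted replicate 6 minus the mean of deleted replicates 4 and 5 for each gene, by its chromosome (chromosome 1 in red); right, log2 level on floxed replicate 5 minus the mean of floxed replicates 4 and 6, by complex, with dashed lines at -0.5 and 0.5. All 5 genes on chromosome 1 lie above 0 on the left, and 17 genes lie under -0.5 on the right.

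Other genes of mitochondrial energy metabolism were read beside the subunits. The 12 partners of the chain, such as the cytochrome c gene Cycs, had no call in any comparison, with medians of -0.13 (deleted minus floxed), 0.06 (floxed minus Hoxa9-Meis1) and -0.08 (deleted minus Hoxa9-Meis1). Cycs was lower on all deleted than on all floxed arrays, by -0.47 ± 0.13 (adjusted p = 0.0630). Of 39 further assembly factors, 2 were higher in deleted than in floxed arrays: Coa4, a complex IV factor (0.88), and Bcs1l, which inserts the iron-sulfur protein into complex III (0.87). Against Hoxa9-Meis1, 4 were higher in floxed arrays (Uqcc1 0.67, Atpaf1 0.59, Cox16 0.59 and Cox15 0.56), and 5 were higher and 1 lower in deleted arrays. These included Nubpl, a complex I factor (1.11), Cox16 (0.76), Tmem70, a complex V factor (0.62), and Higd1a, which fell (-0.60).

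Of 18 regulators of mitochondrial genes, Esrra, the estrogen-related receptor alpha, was higher in deleted than in floxed arrays (0.82 ± 0.17, adjusted p = 0.0202). Its levels were 8.48, 8.81 and 8.58 in the deleted, 7.90, 7.45 and 8.04 in the floxed and 8.45, 8.27 and 8.39 in the Hoxa9-Meis1 arrays, so the floxed arrays were low. In floxed arrays, both subunit genes of GABP were higher than in Hoxa9-Meis1 arrays, Gabpb1 by 1.02 ± 0.22 and Gabpa by 0.73 ± 0.16 (adjusted p = 0.0215 for both). Myc was lower by -1.20 ± 0.29 (adjusted p = 0.0333). Polg2, the accessory subunit of the mitochondrial DNA polymerase, was lower than in Hoxa9-Meis1 arrays in both, by -2.12 ± 0.19 in floxed and -2.37 ± 0.19 in deleted arrays (adjusted p = 0.000405 and 0.000111). In the deleted arrays, differences of Gabpb1 (0.50) and Gabpa (0.50) did not pass the test (adjusted p = 0.169 and 0.0605).

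Among 17 citric acid cycle genes, none was called between deleted and floxed or between floxed and Hoxa9-Meis1 arrays. In deleted arrays, Suclg2, a succinate-CoA ligase subunit, was higher (0.73) and Idh2, the mitochondrial isocitrate dehydrogenase, lower (-0.80) than in Hoxa9-Meis1 arrays. Of 19 glycolysis genes, the aldolase gene Aldoc (1.86, adjusted p = 0.0257) and the hexokinase gene Hk1 (0.82, adjusted p = 0.00328) were higher in deleted than in floxed arrays. Hk1 was 11.09 ± 0.09 (mean ± SD, n = 3) in the deleted, 10.27 ± 0.03 in the floxed and 10.61 ± 0.14 in the Hoxa9-Meis1 arrays, without overlap between any of the groups. Between deleted and Hoxa9-Meis1 arrays, 4 glycolysis genes were higher and 2 lower. Among them, Aldoc was higher by 2.69, and the lactate dehydrogenase gene Ldhb by 2.18. The lactate exporter gene Slc16a3 was higher too, with means of 11.09 and 9.09 (adjusted p = 0.00403), and Slc16a1, another lactate transporter gene, was lower (-1.08). Of 15 genes of mitochondrial protein import and folding, Phb2, a prohibitin, was the only call (0.56, deleted over Hoxa9-Meis1).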

How the data were processed

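The 9 Affymetrix mouse arrays fall into 3 groups of 3. Each deposited value is the intensity of a probe set on an array, made by the authors with RMA (background correction, quantile normalization and probe summary) per the submitters' processing notes; the version is not given in the sources used here. The values are linear, and log2(value + 1) was taken. Quantile normalization removes a shift shared by most genes, and precision is limited by the number of arrays.

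Of 45101 probe sets, 34958 carried 1 gene symbol, giving 18194 genes. Another 10 probe sets with several symbols, 1 of them fitting the name rule, were left out. A limma 3.58.1 model (R 4.3.3) with a mean for each group was fitted to all arrays, two-sided, with Benjamini-Hochberg adjustment over all genes and a threshold of 0.05, after a check on simulated data. The genes and lists were chosen with earlier results of these data known. The text names called genes (at most 12 per direction), the largest difference of each complex, isoform pairs, genes the name rule takes in that are no subunits, Mllt10, and up to 4 called genes of each other list. Genes of the 2 added marker lists, Cycs and genes named for single arrays or probe sets were chosen after their values were seen. Motifs were searched in the 250 bases before RefSeq starts (GRCm38.p6). Alternatives changed the pseudocount, the probe set, the dim filter, the normalization, the arrays and groups fitted, the weights and the chromosome medians.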

Additional observations from a re-analysis of the deposited data

How the results depend on the processing

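Between deleted and floxed arrays, 1 gene was called higher, in place of 0, with a pseudocount of 32, with the mean of all probe sets, with arrays centred on their medians and with chromosome medians subtracted. With the mean of all probe sets 2 were called lower, in place of 1. Against Hoxa9-Meis1, the floxed calls higher numbered 10 with the pseudocount of 32, 11 with the mean of all probe sets and 17 with array weights, in place of 5, and 1 was called lower with array weights. These are 11.1%, 12.2% and 18.9% of the 90, beside 5.71%, 6.36% and 8.77% of all genes and 11%, 10.7% and 15.5% of the genes with a mean level of at least 10. The deleted calls higher numbered 13 with the mean of all probe sets, 14 with arrays centred on their medians, 15 with only the 2 groups in the fit and 20 with array weights, in place of 8. These are 14.4%, 15.6%, 16.7% and 22.2% of the 90, beside 9.81%, 12.4%, 9.54% and 13.9% of all genes and 16.2%, 20.9%, 16.1% and 24.4% of those bright genes. The median difference of the deleted arrays from Hoxa9-Meis1 was 0.11 with quantile normalization repeated (all genes 0.06) and 0.26 with centred arrays (all genes 0.13). The cause was not tested. Leaving out 1 array at a time gave 0 calls higher and 1 lower between deleted and floxed arrays. It gave 1 to 8 higher and 0 to 1 lower for floxed, and 3 to 10 higher and 0 lower for deleted arrays, against Hoxa9-Meis1. The medians ranged over 0.01 to 0.10, 0.09 to 0.18 and 0.16 to 0.22. The other alternatives moved no count by more than 1.5 times. Leaving out the assembly factors, and leaving out deleted replicate 6 with floxed replicate 5, were chosen after seeing the data.

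Whether same-numbered arrays of the MLL-AF9 groups come from the same primary leukemia is not stated in the labels. Deviations of same-numbered arrays correlated at 0.03, 0.05 and 0.01 (across genes), beside -0.13 to 0.08 for arrays with different numbers. With so few arrays per group, these correlations cannot decide whether the replicate numbers pair the arrays. With the replicate number as a block, 0 genes were called higher and 1 lower, and the median was 0.05.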
